A study of Mus musculus with 8 samples.

Results

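Macrophages grown from bone marrow of *Ncoa6* fl/fl LysM CRE mice (*Ncoa6*-KO BMDMs) were compared with and without LPS followed by monosodium urate (MSU) crystals, to describe which genes rise and which fall in cells without full *Ncoa6*. The comparison rests on 4 of the 8 libraries of the series: 2 of *Ncoa6*-KO BMDMs with LPS + MSU and 2 of *Ncoa6*-KO BMDMs with medium alone, chosen by their labels, and over 17625 of 50615 genes, those with a sum of at least 10 rounded counts over the 8 libraries. All cells came from mice on the C57BL/6 strain, were differentiated for 6 days in M-CSF at 20 ng/ml, and then received medium only, or LPS at 100 ng/ml for 4 h followed by MSU at 200 µg/ml for 2 h. The other 4 libraries are *Ncoa6*-sufficient BMDMs of *Ncoa6* fl/fl mice, which carry the floxed gene without Cre, under both conditions. Cre is driven from the lysozyme 2 gene, so *Ncoa6* is removed in cells that express lysozyme 2, and cells that do not would keep it. The libraries of a group came from different mice, whose age is not given in the sources used here. LPS and MSU were given together in every treated library, so the effects of either alone cannot be told apart.

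LPS, a component of the outer membrane of Gram-negative bacteria, is sensed by Toll-like receptor 4 on macrophages. Its adaptors MyD88 and TRIF activate NF-κB and MAP kinases on one side and interferon regulatory factors on the other, so that cytokine and chemokine genes are induced directly and interferon-stimulated genes follow through secreted interferon-β. LPS also primes the NLRP3 inflammasome by raising *Nlrp3* and *Il1b* mRNA, and MSU crystals, the cause of gout, are a classical second signal for its assembly. NCOA6 is a nuclear receptor coactivator that also belongs to the MLL3 and MLL4 histone methyltransferase complexes.

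The deposited values are expected counts, and counts per library ran from 25281955 to 33673552. Here, normalized counts are counts divided by the library's effective size (total times edgeR's TMM factor) and multiplied by the mean effective size. *Ncoa6* itself was counted at 784 and 622 normalized counts in *Ncoa6*-KO BMDMs with medium, at 563 and 526 with LPS + MSU, and at 1515 and 1405 and at 1297 and 1173 under the same conditions in *Ncoa6*-sufficient BMDMs. The counts are for the whole gene and include reads from outside the floxed part, so they do not measure the deletion itself. The 4 libraries of each genotype did not overlap. *Lyz2*, the locus that carries Cre, was at 127555 and 111994 with medium and 129385 and 123265 with LPS + MSU in *Ncoa6*-KO BMDMs (log2 fold change 0.08 ± 0.17, not called).

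All 10 macrophage markers were measured, with summed normalized counts of 313460 and 272271 with medium and 423993 and 396299 with LPS + MSU, and *Adgre1*, *Csf1r*, *Cd68* and *Itgam* were high in each library. Of the markers of other cells, no mast cell or basophil marker and 1 of 8 T and NK cell markers (*Cd4*, which macrophages can also express) passed the count filter, and *Klf1* was the only erythroid marker that did. Neutrophil markers summed to 445 and 509 with medium and 864 and 803 with LPS + MSU, with 4 of 9 called higher. Dendritic cell markers summed to 29.9 and 30.7 with medium and 179 and 199 with LPS + MSU, led by *Xcr1*, with 4 of 6 called higher, and endothelial cell markers, led by *Kdr* and *Vwf*, to 5569 and 4310 and to 8739 and 6507, with 3 of 5 higher and 1 lower. Of the B cell markers 2 of 4 were called lower, at sums of at most 38.9, and of the osteoclast markers 2 of 6 were higher and 1 lower. Stromal markers, led by *Col1a1* and *Col1a2*, summed to 152 and 498 with medium and 366 and 866 with LPS + MSU, so replicate 2 held more under both conditions, and 3 of 8 were called higher. Of all genes tested, 25.2% were called higher and 27.9% lower, so calls among a few markers are common here. Fewer cells of a type and less RNA per cell cannot be told apart in bulk RNA, and the part of these markers in the results was not tested.

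LPS + MSU changed a large part of the transcriptome of *Ncoa6*-KO BMDMs. With edgeR's quasi-likelihood test and Benjamini-Hochberg adjustment over all 17625 genes, 4446 genes (25.2%) were called higher and 4913 (27.9%) lower at an adjusted p under 0.05, 53.1% of the genes tested. The counts of list members given below stand beside these shares of all genes. Which direction held more genes depended on the scaling, with 4779 higher and 4557 lower for DESeq2 size factors in edgeR and 4104 and 5383 for upper-quartile factors. With a log2 fold change of over 1 in addition, 2703 genes (15.3%) were higher and 2636 (15.0%) lower. Large changes were more often rises: 1067 genes were higher and 396 lower by more than 3 on the log2 scale, and 425 higher and 109 lower by more than 5. The 2703 genes that rose held 39.1% of the normalized counts with LPS + MSU and 11.3% with medium, and the 2636 that fell held 1.61% and 7.7%. Both libraries of a group lay on the same side in 35.4% of all genes tested for higher and 41.1% for lower values, so an absence of overlap is common here and is no finding by itself. All log2 fold changes below are LPS + MSU minus medium from this fit, given ± an approximate SE. A gene is said to rise or fall where it was called. The SE is the absolute log2 fold change divided by the square root of the test's F. It is least reliable where counts are very low under either condition, and can then be too narrow. The 95% intervals for the difference between genotypes rest on the same SE. The p-values rest on the spread between 2 libraries per group, with 4 residual degrees of freedom over the 8, and an exact permutation test of 2 against 2 libraries could not go below p = 0.333.

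**Figure D1:**
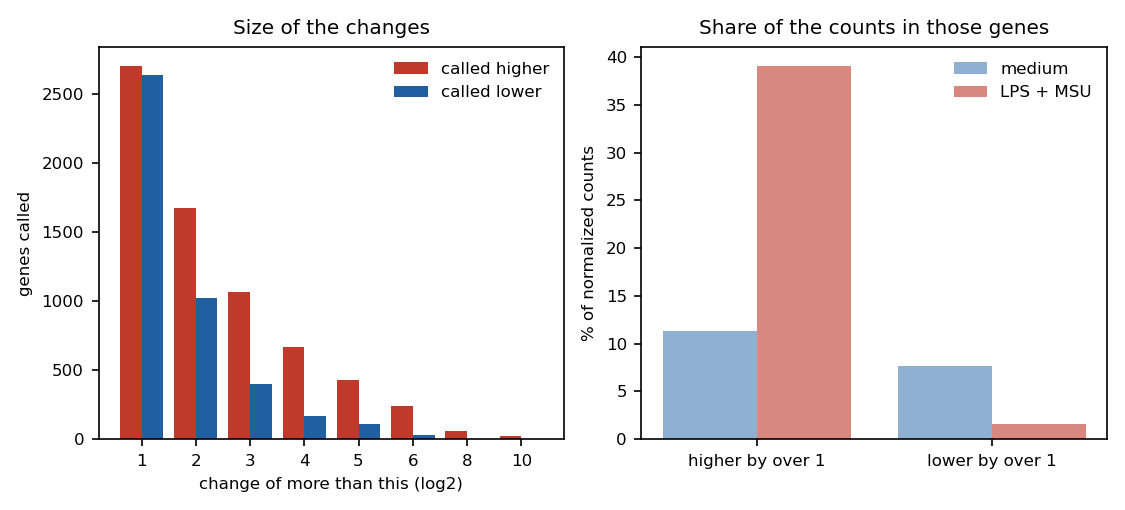
Left, the number of genes called higher (red) and lower (blue) in *Ncoa6*-KO BMDMs past each log2 limit; right, the percent of all normalized counts held by genes called beyond a log2 fold change of 1, with medium and with LPS + MSU (group means of 2 libraries). The 2 directions start at 2703 and 2636 genes and separate at larger changes.

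The 10 largest rises were taken among genes averaging 50 normalized counts or more. *Nos2*, which encodes inducible nitric oxide synthase, rose from 2.09 and 0.878 normalized counts in the 2 medium libraries to 55824 and 49919.8 in the 2 LPS + MSU libraries (fitted log2 fold change 14.95 ± 0.35, edgeR adjusted p = 2.56e-10; ratio 34131, 95% counting interval 13329.8 to 125270). *Edn1*, the precursor of the vasoconstrictor endothelin-1, went from 0.695 and 0 with medium to 4438 and 2865 with LPS + MSU (ratio 9481, 95% counting interval 1701 to 374529). *Ptgs2*, the inducible cyclooxygenase that starts prostaglandin synthesis, rose from 19.5 and 38.6 with medium to 77336 and 65402 with LPS + MSU (11.30 ± 0.27). Each was close to silent with medium and reached a high level with LPS + MSU. *Adamts4*, an aggrecan-cleaving protease, rose from 0.695 and 0.878 with medium to 2250.4 and 2589.7 with LPS + MSU (ratio 3111, 95% counting interval 861 to 25699.5). *Heatr9* had no count with medium and 538 and 421 normalized counts with LPS + MSU, at least 203-fold higher than the floor of 3 counts per library. The other 5 of the 10 were *Il12b*, *Il6*, *Il1b*, *Cxcl9* and *Ccl5*, described with their lists. Counting intervals and floors cover counting error only.

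The largest falls were smaller in size. *Gemin4*, part of the SMN complex that assembles splicing particles, was at 257 and 388 normalized counts with medium and 0 and 0 with LPS + MSU, at least 79.4-fold lower, and lies inside *Glod4*, so its reads could be assigned to either gene. *Cxcr4*, the receptor for the marrow retention signal CXCL12, fell from 4250.4 and 3286 with medium to 70.6 and 56 with LPS + MSU (-5.89 ± 0.18). It was the most highly counted gene among the 10 with the largest falls. *Frat1* and *Frat2*, which bind GSK-3 in Wnt signalling, fell from between 141 and 242 normalized counts with medium to at most 5.23 with LPS + MSU. The remaining 6 were *Vash2* (-5.97 ± 0.36), *Tfap4* (-5.56 ± 0.46), *Plekhg3* (-5.53 ± 0.21), *Zfp395* (-5.43 ± 0.32), *Cdca7* (-5.41 ± 0.37) and *Esco2* (-5.35 ± 0.25), the last an acetyltransferase of sister chromatid cohesion.

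**Figure D2:**
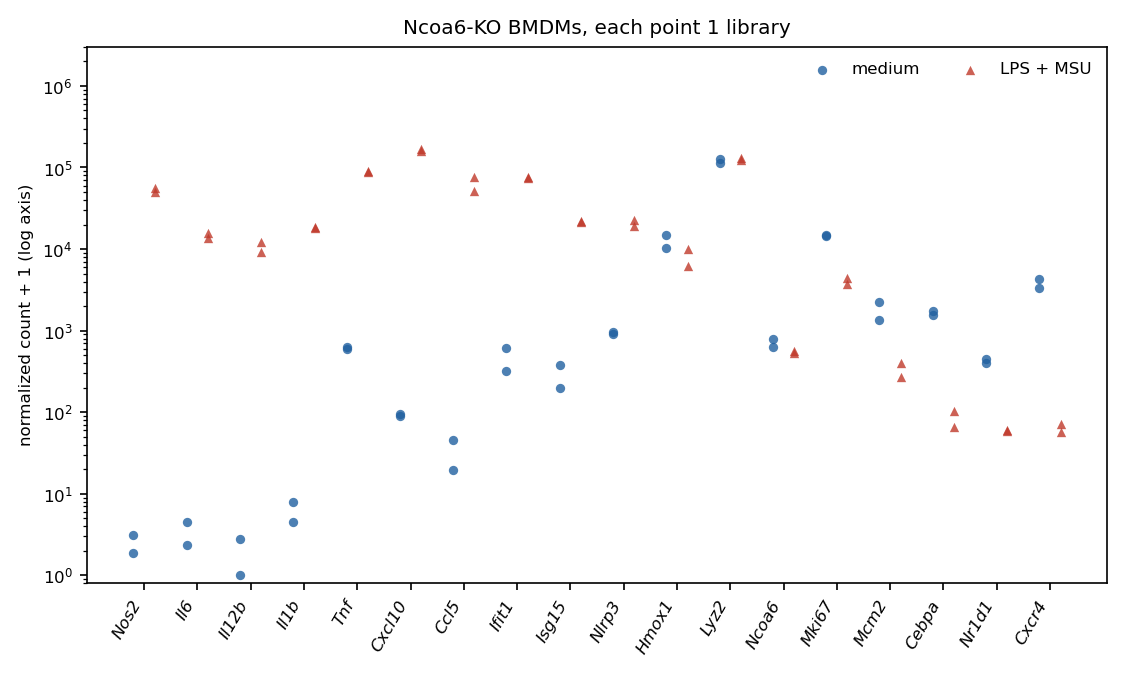
Normalized counts plus 1 (log axis) of 18 genes in *Ncoa6*-KO BMDMs, each point 1 library, with medium (blue circles) and with LPS + MSU (red triangles). *Nos2* to *Nlrp3* are above medium, *Mki67* to *Cxcr4* below it, and *Lyz2* is level.

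Chemokines, the secreted proteins that draw leukocytes to a site, had the highest median of the 30 gene lists, 6.85, against -0.07 over all genes tested. Of 23 tested, 21 rose and 0 fell. The interferon-linked ligands of CXCR3 were among the largest: *Cxcl10* rose from 93.2 and 88.7 with medium to 166333 and 158490 with LPS + MSU (10.80 ± 0.22), *Cxcl9* from 2.09 and 0 with medium to 6317 and 3217 with LPS + MSU (ratio 4141, 95% counting interval 1416 to 20083) and *Cxcl11* from 0.695 and 0.878 with medium to 806 and 1068 with LPS + MSU (ratio 1202, 95% counting interval 332 to 9932). The ligands of the neutrophil receptor CXCR2 rose too, *Cxcl1* from 13.9 and 18.4 with medium to 1443 and 3007 with LPS + MSU (7.11 ± 0.52) and *Cxcl2* from 101 and 104 with medium to 23917 and 33914 with LPS + MSU (8.14 ± 0.25). Replicate 2 was the higher of the LPS + MSU libraries for both. Of the CC chemokines, *Ccl5* rose from 45.2 and 18.4 with medium to 77493 and 50923 with LPS + MSU (10.92 ± 0.43), and the monocyte attractant *Ccl2* from 1796 and 2465 with medium to 107105 and 98289 with LPS + MSU (5.59 ± 0.24). *Ccl3* rose from 2141 and 1919 with medium to 143551 and 147693 with LPS + MSU (6.16 ± 0.15). The T cell attractants *Ccl22* and *Ccl17* also left near-zero levels, reaching 4012 and 2001, and 166 and 158 normalized counts. *Cxcl5* and *Ccl20* had no count with medium and were called higher, but at 6.53 and 2.8 and at 2.61 and 4.2 normalized counts they lay around the floor of 3 counts per library (4.06 normalized counts).

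The promoter of *Cxcl10*, one of the 5 genes with the smallest p for a difference between genotypes, is shown; it was chosen after its values were seen. It lies at chr5:92348840-92349139, minus strand of GRCm38.p6, from 250 bases before to 50 bases after the start given by RefSeq, and is written 5′ to 3′ on the strand of the gene. Capitals mark its 1 match to the AP-1 letters TGANTCA, which were searched on both strands.
Cxcl10: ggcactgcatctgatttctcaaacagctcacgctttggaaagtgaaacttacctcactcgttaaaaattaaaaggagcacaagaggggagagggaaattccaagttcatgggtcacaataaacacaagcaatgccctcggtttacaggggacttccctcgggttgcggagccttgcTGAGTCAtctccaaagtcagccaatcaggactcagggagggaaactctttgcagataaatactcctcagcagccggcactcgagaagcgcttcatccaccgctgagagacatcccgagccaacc
The match begins 74 bases before the start base. *Il12b*, at chr11:44399813-44400112, plus strand, and *Oasl1*, at chr5:114922990-114923289, plus strand, the members with the largest rises among the cytokine and interferon-stimulated genes set to be described, hold no such match in this window.
Il12b: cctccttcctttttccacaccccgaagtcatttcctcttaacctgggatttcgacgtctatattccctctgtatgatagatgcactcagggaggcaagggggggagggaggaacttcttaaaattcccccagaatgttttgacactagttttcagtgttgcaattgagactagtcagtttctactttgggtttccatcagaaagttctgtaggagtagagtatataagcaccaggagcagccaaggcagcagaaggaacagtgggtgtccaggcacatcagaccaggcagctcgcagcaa
Oasl1: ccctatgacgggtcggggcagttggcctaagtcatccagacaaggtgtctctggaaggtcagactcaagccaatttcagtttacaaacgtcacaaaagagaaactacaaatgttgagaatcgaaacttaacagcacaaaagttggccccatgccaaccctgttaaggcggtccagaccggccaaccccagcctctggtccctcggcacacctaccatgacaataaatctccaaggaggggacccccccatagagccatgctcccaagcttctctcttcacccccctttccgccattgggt
Of all 32851 promoters of this length in the RefSeq table, 7.81% hold these letters.

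Of 33 cytokine and growth factor genes, 26 rose and 3 fell, with a median of 4.59. *Il6*, the pyrogenic cytokine, rose from 1.39 and 3.51 with medium to 15528 and 13857 with LPS + MSU (12.55 ± 0.27). *Il12b*, the p40 chain shared by IL-12 and IL-23, rose from 0 and 1.76 with medium to 12366 and 9301 with LPS + MSU (ratio 14028, 95% counting interval 3883 to 115839), and *Il12a*, its partner in IL-12, had no count with medium and 87.6 and 47.6 normalized counts with LPS + MSU. The partner in IL-23, *Il23a*, was low, at 0.695 and 0.878 normalized counts with medium and 6.53 and 9.79 with LPS + MSU. *Tnf* was already present with medium and rose from 598 and 629 with medium to 87847 and 91028 with LPS + MSU (7.19 ± 0.16), the 2 libraries of each condition lying close together. *Ifnb1*, the interferon that carries the second wave, rose from 1.39 and 0.878 with medium to 204 and 157 with LPS + MSU (ratio 156, 95% counting interval 52.7 to 759). *Il6*, *Il12b* and *Ifnb1* were within a few counts of 0 with medium, and *Tnf* was not. The anti-inflammatory members rose as well: *Il10* from 19.5 and 14.9 with medium to 589 and 439 with LPS + MSU (4.88 ± 0.39) and *Il1rn*, the IL-1 receptor antagonist, from 1098 and 1078 with medium to 22727 and 17200.5 with LPS + MSU (4.20 ± 0.27). The growth factors of the myeloid lineage were *Csf1* (5.08 ± 0.15), *Csf2*, at 0 with medium and 54.9 and 60.2 with LPS + MSU, and *Csf3* (ratio 369, 95% counting interval 65.6 to 14650.1). The 3 that fell were *Il16* (-3.74 ± 0.19), *Igf1* (-0.49 ± 0.10) and *Vegfa* (-1.71 ± 0.14).

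**Figure D3:**
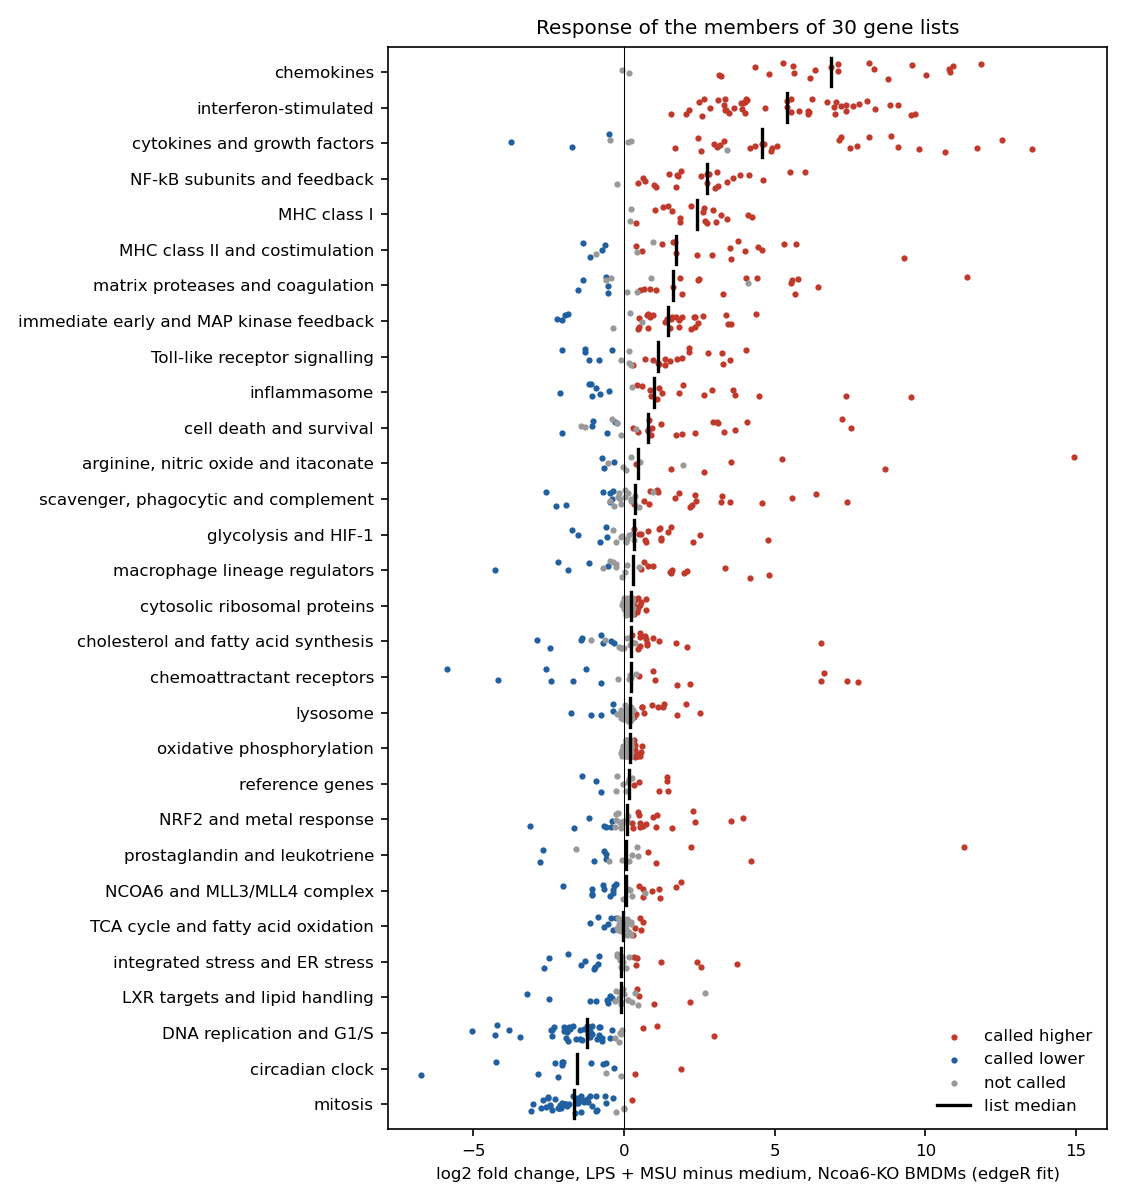
Fitted log2 fold change (LPS + MSU minus medium) in *Ncoa6*-KO BMDMs of the tested members of 30 gene lists, each point 1 gene, red where called higher, blue where called lower and grey where not called, with the list median as a bar. Chemokine, interferon-stimulated and cytokine genes are at the top (medians 6.85, 5.40 and 4.59), and mitosis genes at the bottom (-1.67).

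Of 25 genes of NF-κB subunits and their regulators, 24 rose and none fell (median 2.76). The subunits *Nfkb1* (3.01 ± 0.11) and *Relb* (1.80 ± 0.10) rose more than *Rela* (1.01 ± 0.10). The inhibitors that NF-κB induces rose further, *Nfkbia* from 1199 and 1228 with medium to 22268 and 21241 with LPS + MSU (4.16 ± 0.11) and *Tnfaip3* by 4.60 ± 0.12. *Nfkbiz*, which encodes the nuclear protein IκBζ, rose by 5.50 ± 0.14. The highest of the list was *Traf1*, an adaptor of TNF receptors (6.02 ± 0.16). Among 27 genes of Toll-like receptor signalling, 17 rose and 6 fell (63.0% and 22.2%, against 25.2% and 27.9% of all genes tested). *Tlr4*, the LPS receptor, was at 2499 and 1973 normalized counts with medium and 2708 and 2338 with LPS + MSU (0.17 ± 0.13, not called), while its co-receptor *Cd14* rose from 5228 and 3937 with medium to 47215 and 42836 with LPS + MSU (3.30 ± 0.16), *Tlr2* from 2379 and 2036 with medium to 18892 and 23049 with LPS + MSU (3.25 ± 0.16) and the adaptor *Myd88* from 984 and 915 with medium to 6504 and 6486 with LPS + MSU (2.77 ± 0.13). *Tlr3*, the receptor for double-stranded RNA, had the largest rise of the list (4.06 ± 0.17). Of 34 immediate early and MAP kinase feedback genes, 27 rose and 4 fell. The AP-1 members *Junb* (2.44 ± 0.12), *Atf3* (1.71 ± 0.10) and *Jun* (0.77 ± 0.10) rose, as did *Egr1* (2.31 ± 0.18), the phosphatase *Dusp1* that inactivates MAP kinases (3.44 ± 0.23) and, most of all, *Nr4a3*, an orphan nuclear receptor (4.37 ± 0.24). *Gadd45a* had the largest fall (-2.23 ± 0.18).

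All 46 interferon-stimulated genes of the list rose, each by more than 1 on the log2 scale, against 15.3% of all genes tested, with a median of 5.40. *Rsad2*, which encodes the antiviral enzyme viperin, rose from 1818 and 1210 with medium to 352572 and 315759 with LPS + MSU (7.78 ± 0.28) and was among the 10 most highly counted genes with LPS + MSU. *Ifit1*, a sensor of viral RNA caps, rose from 607 and 319 with medium to 77018 and 75180.5 with LPS + MSU (7.35 ± 0.29), and *Isg15*, a ubiquitin-like modifier, from 375 and 195 with medium to 22195 and 21262 with LPS + MSU (6.24 ± 0.30). *Usp18*, which removes ISG15 and limits interferon signalling, rose from 425 and 298 with medium to 20845 and 19389 with LPS + MSU (5.79 ± 0.19). With medium, replicate 1 was above replicate 2 in 45 of the 46 genes, by a median of 0.65 on the log2 scale, and in 38 of 46 with LPS + MSU, by 0.12. The largest rise was that of *Ifi205* (9.67 ± 0.27), the guanylate-binding proteins *Gbp5* (9.53 ± 0.26) and *Gbp2* (7.36 ± 0.28) followed the same direction, and the smallest rise was 1.56. Among the transcription factors, *Irf7* rose from 1101 and 679.7 with medium to 39495 and 35853 with LPS + MSU (5.40 ± 0.23) and *Irf1* by 3.92.

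*Oasl1*, an antiviral protein of the oligoadenylate synthetase family, rose from 70.2 and 42.1 with medium to 16569.9 and 20084 with LPS + MSU (8.32 ± 0.24). Replicate 2 was the higher library with LPS + MSU and the lower one with medium.

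Genes of antigen presentation rose with them. Of 20 MHC class I and peptide loading genes 18 rose and none fell (median 2.43), from the transactivator *Nlrc5* (4.23 ± 0.15) and the peptide transporter *Tap1* (4.10 ± 0.16) to *H2-K1* (1.87 ± 0.16) and *B2m* (1.45 ± 0.22), which encode the presenting chains. *H2-K1* and related class I genes are near-identical copies, and reads may be split among them. Of 24 class II and costimulation genes, 17 rose and 4 fell. *Cd40* rose from 49.4 and 43.9 with medium to 33257 and 25818 with LPS + MSU (9.30 ± 0.22), *Cd86* from 109 and 92.2 with medium to 2772 and 1682 with LPS + MSU (4.46 ± 0.23) and *Cd80* from 396 and 396 with medium to 1278 and 1268 with LPS + MSU (1.68 ± 0.09). The class II transactivator *Ciita* rose from 27.1 and 12.3 with medium to 439 and 222 with LPS + MSU (4.02 ± 0.40), and *H2-Ab1* from 143 and 94 with medium to 1151 and 674 with LPS + MSU (2.93 ± 0.25), replicate 1 being the higher one under both conditions. The ligand of PD-1, *Cd274*, rose by 5.72 ± 0.21 and the adhesion molecule *Icam1* by 5.30 ± 0.13.

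The components of the inflammasome moved in both directions: of 24 genes, 16 rose and 7 fell (median 0.99). These are 66.7% and 29.2%, against 25.2% and 27.9% of all genes tested. *Gbp5* (9.53 ± 0.26), a guanylate-binding protein that is also in the interferon-stimulated list, rose most. The sensor *Nlrp3* rose from 958 and 901 with medium to 18998 and 22526 with LPS + MSU (4.48 ± 0.13). The genes of the caspase-1 substrates, which are listed with the cytokines, rose too, *Il1b* from 6.95 and 3.51 with medium to 18367 and 18637 with LPS + MSU (11.70 ± 0.20) and *Il18* from 122 and 106 with medium to 2392 and 2285 with LPS + MSU (4.35 ± 0.13). The proteases *Casp1* (2.93 ± 0.10) and *Casp4* (3.61 ± 0.14) and the pore-forming *Gsdmd* (1.97 ± 0.12) rose as well. The adaptor *Pycard*, which encodes ASC, fell from 1212 and 1409 with medium to 942 and 930.4 with LPS + MSU (-0.48 ± 0.16, edgeR adjusted p = 0.0242), a call lost without replicate 1 (-0.50) or replicate 2 (-0.47) with LPS + MSU or replicate 2 with medium (-0.37). *Nek7*, a partner of NLRP3, rose by 0.43 ± 0.09, and *Txnip*, a stress-regulated binding partner of thioredoxin, fell from 7859 and 5664 with medium to 3357 and 3698 with LPS + MSU (-0.94 ± 0.14). *Nlrp1b* had the largest fall of the list (-2.13 ± 0.21). *Il1a*, the other IL-1 gene, rose from 8.34 and 7.9 with medium to 6527 and 7966 with LPS + MSU (9.77 ± 0.19). The libraries of the 2 conditions did not overlap for any of these genes. The same held for 35.4% (higher) and 41.1% (lower) of all genes tested, so it adds no support.

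Among 16 genes of arginine, nitric oxide and itaconate metabolism 7 rose and 3 fell. Beside *Nos2*, *Acod1*, which makes itaconate from a citric acid cycle intermediate, rose from 454 and 510.2 with medium to 192980 and 198673 with LPS + MSU (8.67 ± 0.17), with the arginine transporter *Slc7a2* (5.23 ± 0.14) and *Gch1*, the first enzyme for the cofactor of nitric oxide synthase (3.56 ± 0.11). The competing enzyme *Arg1* was near 0, at 1.39 and 0 normalized counts with medium and 3.92 and 2.8 with LPS + MSU, and *Arg2* rose from 6.95 and 1.76 with medium to 27.4 and 30.8 with LPS + MSU (2.64 ± 0.60). Of 18 prostaglandin and leukotriene genes, 5 rose and 6 fell (27.8% and 33.3%, against 25.2% and 27.9% of all genes tested). The inducible pair *Ptgs2* and *Ptges* (4.22 ± 0.13) rose, the constitutive *Ptgs1* fell (-1.01 ± 0.15), and the prostaglandin-degrading *Hpgd* (-2.70 ± 0.28) and the receptor *Ptger2* (-2.79 ± 0.23) fell further. *Alox5*, the first enzyme of leukotriene synthesis, was at 24.3 and 70.2 normalized counts with medium and 18.3 and 47.6 with LPS + MSU, with replicate 2 higher under both conditions. Of 30 genes of glycolysis and HIF-1, 15 rose and 5 fell, with *Slc2a6* (4.79 ± 0.18), *Pfkfb3* (2.29 ± 0.15), *Slc2a1* (1.54 ± 0.11), *Hk2* (1.24 ± 0.11) and *Hif1a* (0.74 ± 0.11) among the rises.

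The listed genes of the respiratory chain, all encoded in the nucleus, and those of the ribosome stayed close to the median of all genes. Genes encoded in the mitochondria are not in the list. Of these, *mt-Co1* was called higher (0.64, edgeR adjusted p = 0.0341), a call lost without any of the 4 *Ncoa6*-KO libraries. Of 65 oxidative phosphorylation genes 21 rose (32.3%, against 25.2% of all genes tested) and none fell, with a median of 0.20 and a largest rise of 0.59. Of 76 cytosolic ribosomal protein genes, 21 rose (27.6%, near the share of all genes) and none fell, with a median of 0.23. These counts moved with the scaling: DESeq2 size factors in edgeR gave 32 and 38 rises, and upper-quartile factors 13 and 12, with the medians above 0 under each. Of 36 genes of the citric acid cycle and fatty acid oxidation, 5 rose and 7 fell (13.9% and 19.4%, against 25.2% and 27.9% of all genes tested). These counts turned to 8 and 6 with DESeq2 size factors and became 4 and 12 with upper-quartile factors. Citrate synthase, *Cs*, rose by 0.36 ± 0.09, while *Idh1*, the cytosolic isocitrate dehydrogenase, fell from 4590.4 and 3685 with medium to 2007 and 1747 with LPS + MSU (-1.14 ± 0.12). The succinate dehydrogenase subunit *Sdhb* was at 2336 and 2513 normalized counts with medium and 2473 and 2468 with LPS + MSU (0.03 ± 0.09, not called).

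NRF2, the transcription factor of the oxidative stress response, and the metal-binding proteins gave a mixed list: 16 of 35 rose and 7 fell (median 0.11). These are 45.7% and 20.0%, against 25.2% and 27.9% of all genes tested. The cystine transporter *Slc7a11* rose from 217 and 259.9 with medium to 2345 and 4957 with LPS + MSU (3.94 ± 0.34), mitochondrial superoxide dismutase *Sod2* by 3.55 ± 0.12 and the autophagy receptor *Sqstm1* by 2.34 ± 0.17. *Nfe2l2*, which encodes NRF2, rose by 0.47 ± 0.10. Its classical targets did not move together: heme oxygenase *Hmox1* fell from 10361 and 14944 with medium to 6161 and 9959 with LPS + MSU (-0.65 ± 0.21, edgeR adjusted p = 0.0218), *Srxn1*, a sulfiredoxin, rose from 4360.3 and 4728 with medium to 5447 and 7698 with LPS + MSU (0.53 ± 0.18, edgeR adjusted p = 0.0252), *Nqo1* was at 161 and 204 normalized counts with medium and 141 and 204 with LPS + MSU and *Gclm* at 3308 and 3918 normalized counts with medium and 2482 and 3382 with LPS + MSU. The call of *Hmox1* was lost without LPS + MSU replicate 1 (-0.36) or medium replicate 2 (-0.36), and that of *Srxn1* without LPS + MSU replicate 2 (0.26) or medium replicate 1 (0.47). The iron exporter *Slc40a1* fell from 13261 and 10531 with medium to 1138 and 1595 with LPS + MSU (-3.12 ± 0.17), while ferritin heavy chain *Fth1* rose by 0.49 ± 0.13. Of 26 integrated stress and endoplasmic reticulum stress genes, 7 rose and 9 fell (26.9% and 34.6%, against 25.2% and 27.9% of all genes tested), with *Hspa1b* (3.74 ± 0.17) and *Ppp1r15a* (2.42 ± 0.11) up, *Trib3* (-2.50 ± 0.38) and *Ddit4* (-2.64 ± 0.28) down, and *Ddit3* not called (-0.06 ± 0.11). *Srxn1* was called higher here and lower in *Ncoa6*-sufficient BMDMs, but the difference between genotypes did not pass (edgeR adjusted p = 0.437). It had the largest rise among the NRF2 genes set to be described, and its promoter is shown for that reason. The promoter lies at chr2:152105274-152105573, plus strand of GRCm38.p6, and its 2 matches to the AP-1 letters TGANTCA are in capitals.
Srxn1: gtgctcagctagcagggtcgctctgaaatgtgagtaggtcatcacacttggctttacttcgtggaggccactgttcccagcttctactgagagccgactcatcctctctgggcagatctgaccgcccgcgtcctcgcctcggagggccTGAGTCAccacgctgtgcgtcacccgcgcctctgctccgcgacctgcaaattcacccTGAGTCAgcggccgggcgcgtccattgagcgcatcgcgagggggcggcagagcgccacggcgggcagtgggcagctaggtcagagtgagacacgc
The core of the NRF2 site resembles that of AP-1, and the matches lie 102 and 45 bases before the start base.

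Of 32 genes of cholesterol and fatty acid synthesis, 14 rose and 8 fell: *Ch25h*, whose product 25-hydroxycholesterol is antiviral, rose from 8.34 and 14 with medium to 1022 and 1019 with LPS + MSU (6.53 ± 0.22), while *Sqle* (-0.43 ± 0.12) and *Scd2* (-2.87 ± 0.43) fell. Of 26 LXR targets and lipid handling genes, 4 rose and 8 fell (15.4% and 30.8%, against 25.2% and 27.9% of all genes tested). LXRα, *Nr1h3*, rose from 206 and 214 with medium to 919 and 991 with LPS + MSU (2.18 ± 0.13), but its partner *Rxra* (-3.22 ± 0.14) and *Pparg* (-2.50 ± 0.17) fell. The cholesterol transporters under LXR control were not called: *Abca1* was at 5839.7 and 2401 normalized counts with medium and 4713 and 2896 with LPS + MSU, and *Abcg1* at 2453 and 745 normalized counts with medium and 3220.1 and 1226 with LPS + MSU, replicate 1 being higher under both conditions.

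Among the surface receptors of macrophages, 19 of 41 scavenger, phagocytic and complement genes rose and 8 fell (46.3% and 19.5%, against 25.2% and 27.9% of all genes tested). Complement factor B, *Cfb* (7.41 ± 0.18), *C3* (6.36 ± 0.18) and the mycobacterial glycolipid receptor *Clec4e* (5.58 ± 0.14) had the largest rises, the Fc receptor *Fcgr1* rose from 1213 and 697 with medium to 13424 and 8582 with LPS + MSU (3.52 ± 0.33) and *Marco* by 2.39 ± 0.21. *Mrc1* (-0.48 ± 0.11) and *Cd163* (-2.60 ± 0.27), both used as markers of alternatively activated macrophages, fell. The receptors *Msr1* (1.68 ± 0.15) and *Mertk* (1.09 ± 0.23) of the same list rose, so these falls do not describe that state as a whole. Of 21 chemoattractant receptors, 9 rose and 7 fell (42.9% and 33.3%, against 25.2% and 27.9% of all genes tested). The formyl peptide receptors *Fpr2* (7.77 ± 0.19) and *Fpr1* (6.63 ± 0.25) and *Ccrl2* (6.54 ± 0.14) rose, while *Cxcr4*, the sphingosine phosphate receptor *S1pr1* (-4.17 ± 0.16), *Ccr2* (-2.42 ± 0.16) and *Cx3cr1* (-1.27 ± 0.27) fell. *Ccr2* went from 334 and 391 with medium to 68 and 67.2 with LPS + MSU. Of 26 regulators of the lineage, 12 rose and 5 fell (46.2% and 19.2%, against 25.2% and 27.9% of all genes tested). PU.1, *Spi1*, rose from 5757 and 5675 with medium to 16358 and 16719 with LPS + MSU (1.53 ± 0.10) and *Cebpb* from 638 and 646 with medium to 2176 and 3306 with LPS + MSU (2.09 ± 0.16), while *Cebpa* fell from 1539.9 and 1728 with medium to 64 and 104 with LPS + MSU (-4.29 ± 0.19), so 2 members of the C/EBP family went opposite ways. *Irf8* was at 2645 and 2138 normalized counts with medium and 4181 and 2551 with LPS + MSU and was not called. Of 40 lysosomal genes, 12 rose and 5 fell (of all genes tested, 25.2% and 27.9%), with *Ctsc* (2.52 ± 0.18) and *Ctss* (0.58 ± 0.15) up. The proteases with the most counts, *Ctsb* at 534932 and 439922 normalized counts with medium and 652476 and 542442 with LPS + MSU and *Ctsd* at 479300 and 423426 normalized counts with medium and 497025 and 493205 with LPS + MSU, were not called.

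Of 29 genes of matrix proteases and coagulation, 18 rose and 5 fell. The collagenases *Mmp13* from 374 and 421 with medium to 17435 and 20540.1 with LPS + MSU (5.58 ± 0.23) and *Mmp14* from 177 and 138 with medium to 8048 and 6653 with LPS + MSU (5.53 ± 0.19) rose, as did *Mmp9* (1.93 ± 0.12), the plasminogen activator inhibitor *Serpinb2* (5.67 ± 0.45) and tissue factor, *F3* (3.27 ± 0.29); the inhibitor *Timp2* fell (-0.52 ± 0.16). Of 31 cell death and survival genes, 19 rose and 5 fell. The rises held anti-apoptotic genes, *Bcl2a1d* (7.24 ± 0.23; the *Bcl2a1* genes are near-identical copies), *Cflar* (4.07 ± 0.11) and *Mcl1* (0.88 ± 0.10), and also the death receptor *Fas* (3.68 ± 0.20) and *Mlkl*, the executor of necroptosis (2.97 ± 0.11), whereas *Bcl2* fell (-2.07 ± 0.29). In the list of NCOA6, its MLL3 and MLL4 partners and other coregulators, 8 of 24 rose and 11 fell (33.3% and 45.8%, against 25.2% and 27.9% of all genes tested). The methyltransferases *Kmt2c* (0.92 ± 0.10) and *Kmt2d* (0.64 ± 0.11) rose and the demethylase *Kdm6a* fell (-0.47 ± 0.11). *Ncoa7*, another coactivator, rose most (1.90 ± 0.13), and *Ncoa6* fell by 0.37 ± 0.12 (edgeR adjusted p = 0.0255), a call lost without replicate 1 (-0.43) or replicate 2 (-0.32) with LPS + MSU or replicate 1 with medium (-0.19).

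Cell-cycle genes fell. Of 46 mitosis genes, 42 fell and 1 rose, with a median of -1.67, the lowest of the 30 lists, against 27.9% of all genes called lower. *Mki67*, the proliferation marker Ki-67, fell from 14409 and 15046 with medium to 4466 and 3768 with LPS + MSU (-1.84 ± 0.16), *Top2a* from 6443 and 6933 with medium to 2965 and 3172 with LPS + MSU (-1.12 ± 0.11), and *Cdk1*, the kinase that drives entry into mitosis, from 1834 and 2029 with medium to 927 and 922 with LPS + MSU (-1.06 ± 0.09). *Kif23* had the largest fall (-3.08 ± 0.15), and *Cenpe*, a kinetochore motor, was the one that rose (0.27 ± 0.09, edgeR adjusted p = 0.0326; not called with upper-quartile factors, 0.20, nor without LPS + MSU replicate 1, 0.19, or medium replicate 2, 0.23).  Of 46 genes of DNA replication and the G1/S step, 38 fell and 3 rose (median -1.23). The helicase subunit *Mcm2* fell from 1345 and 2242 with medium to 272 and 402 with LPS + MSU (-2.41 ± 0.23), the licensing factor *Cdc6* by 4.22 ± 0.32 and *E2f2*, with the largest fall, from 639 and 849 with medium to 27.4 and 16.8 with LPS + MSU (-5.05 ± 0.24). *Cdkn1a*, which encodes the cell-cycle inhibitor p21, went the other way, from 5409 and 7096 with medium to 43963 and 55139.8 with LPS + MSU (2.99 ± 0.16), and *Pcna* was at 10305 and 12164 normalized counts with medium and 10783 and 10763 with LPS + MSU (-0.06 ± 0.11, not called). With medium, replicate 2 was above replicate 1 in 45 of 46 of the replication genes.

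Many mitosis promoters hold the CHR letters TTTGAA and CCAAT boxes, through which the MuvB complex and NF-Y act. Of the 46 mitosis genes, 38 had a promoter in the RefSeq table. Of these, 28 (73.7%) held TTTGAA and 29 (76.3%) CCAAT on either strand, against 17.9% and 37.4% of all promoters. Of 36 replication genes with a promoter, 4 (11.1%) held TTTGAA and 23 (63.9%) CCAAT. High CCAAT shares were not particular to the cell-cycle lists. They reached 78.6% for circadian clock genes, most of which fell, and 70.6% for MHC class I genes, most of which rose. The share was 7.69% for cell death and survival genes. The promoter of *Mki67*, at chr7:135716330-135716629, minus strand of GRCm38.p6, holds 2 CHR and 3 CCAAT matches. That of the replication gene *Mcm2*, at chr6:88898731-88899030, minus strand of the same build, holds 1 of each. With its CHR match, *Mcm2* is not typical of the replication genes. Capitals mark the CHR and CCAAT matches, the latter read ATTGG on the reverse strand.
Mki67: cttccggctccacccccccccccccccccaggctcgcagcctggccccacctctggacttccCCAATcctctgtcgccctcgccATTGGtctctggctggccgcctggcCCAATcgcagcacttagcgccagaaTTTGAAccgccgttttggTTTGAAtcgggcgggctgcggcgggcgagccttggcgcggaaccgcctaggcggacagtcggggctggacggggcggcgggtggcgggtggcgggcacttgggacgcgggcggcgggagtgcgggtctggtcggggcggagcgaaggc
Mcm2: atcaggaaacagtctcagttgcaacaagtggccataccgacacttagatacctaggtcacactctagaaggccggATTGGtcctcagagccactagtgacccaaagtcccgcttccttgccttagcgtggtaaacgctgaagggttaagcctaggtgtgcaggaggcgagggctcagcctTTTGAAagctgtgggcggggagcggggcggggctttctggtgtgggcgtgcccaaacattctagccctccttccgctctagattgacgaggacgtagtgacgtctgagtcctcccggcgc
These matches are a description of the letters in the window.

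Of 16 circadian clock genes, 12 fell and 2 rose (median -1.56). The repressor *Nr1d1*, REV-ERBα, fell from 395 and 451 with medium to 60.1 and 57.4 with LPS + MSU (-2.84 ± 0.23), and the output factor *Dbp* from 949.6 and 533 with medium to 41.8 and 36.4 with LPS + MSU (-4.24 ± 0.30). *Per2* (-2.07 ± 0.48) and *Arntl*, which encodes BMAL1 (-0.70 ± 0.17), fell, and *Npas2* went almost to 0, from 96.6 and 72.9 with medium to 1.31 and 0 with LPS + MSU. The libraries of the 2 conditions did not overlap for these genes, as was common over all genes tested (41.1% for lower values). *Nfil3*, a repressor of the same promoters as DBP, rose (1.88 ± 0.23).

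Of 16 genes used as references for qPCR, 6 rose and 3 fell (37.5% and 18.8%, against 25.2% and 27.9% of all genes tested). *Actb* rose from 75287 and 84789.6 with medium to 226061 and 203874 with LPS + MSU (1.43 ± 0.15), *B2m* by 1.45 and *Polr2a*, the largest subunit of RNA polymerase II, fell from 10431 and 8836 with medium to 3702 and 3645 with LPS + MSU (-1.39 ± 0.12). *Hprt* (-0.25 ± 0.10), *Tbp* (-0.23 ± 0.11), *Ppia* (0.14 ± 0.11) and *Rplp0* (0.18 ± 0.11) were not called.

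The most highly counted genes were largely those of the resting macrophage under both conditions. *mt-Co1* had the most counts, 497128 and 559803 normalized counts with medium and 803704 and 847219 with LPS + MSU, followed by *Ctsb*, *Gpnmb*, *Ctsd* and *Psap*, and the ferritin chains *Fth1* and *Ftl1* and osteopontin, *Spp1*, were also among the first 10 in both groups. *Rsad2* and *Actb* were among the first 10 with LPS + MSU only, and *mt-Cytb* and *Gm28661*, a copy of mitochondrial sequence whose reads cannot be assigned with certainty, with medium only.

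A subset of genes went from near silence to high levels. Of the 2703 genes higher by over 1, 191 had no count in either medium library and 271 had 1 to 3 counts in all. In 25 genes the mean was under 5 normalized counts with medium and at least 500 with LPS + MSU. Beside *Nos2*, *Il6*, *Il12b* and *Cxcl9*, these included *Serpina3f*, at 7 and 2 counts with medium and 6568 and 5189 normalized counts with LPS + MSU, and *Mir155hg*, the host transcript of the microRNA miR-155, at 2 and 7 counts with medium and 4710 and 3584 normalized counts with LPS + MSU. *Hdc*, the enzyme that makes histamine, reached 2089.7 and 1859, and the adenosine receptor *Adora2a* 1971 and 1563. These 4 genes were named after their values were seen. In the other direction, 97 of the 2636 genes that fell by over 1 had no count in either LPS + MSU library.

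Neighbouring genes often rose together. Along the chromosomes, the longest run of tested protein-coding genes that were all called higher by over 1 held 16 genes on chromosome 1 between 173350879 and 174248450 (GRCm38), among them *Aim2*, *Ifi204*, *Ifi203* and *Ifi205*, with a median log2 fold change of 5.44. Further runs were 12 genes on chromosome 11 between 48861968 and 49150453 with *Irgm1*, *Tgtp1* and *Ifi47* (median 4.89), 8 *Slfn* and adjacent genes on chromosome 11 between 82910550 and 83215154 (3.66), 6 *Ifit* genes on chromosome 19 between 34550694 and 34650009 (6.68), 6 genes of the *Gbp* cluster on chromosome 5 (7.67) and the chemokine genes *Ccl2*, *Ccl7*, *Ccl12* and *Ccl8* with 1 neighbour on chromosome 11 (7.12). Members of these families share sequence, and reads may be divided among copies. Runs were described after the values were seen and were not tested.

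Genes that rose or fell were of ordinary size. Among protein-coding genes, the median merged exon length was 4378 bases in the 2104 called higher by over 1, 4814 in the 2254 called lower by over 1 and 4348 in all 13799 tested, with a median of 8 exons in each. The 295 genes higher by over 5 were shorter, at 3289 bases of exon, 16765 bases of gene span and 6 exons, against 23271 bases of span over all tested. Their median level over the 4 libraries was 108 normalized counts, against 460 over all tested. The 104 genes lower by over 4 were shorter too, at 3842 bases of exon, 19522 bases of gene span and 5 exons. Their median level was 31 normalized counts, so shorter genes are not particular to the largest rises.

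To see where the response of *Ncoa6*-KO BMDMs differs from that of *Ncoa6*-sufficient BMDMs, the difference of both responses was tested in the same fit (the interaction). With edgeR's quasi-likelihood test no gene passed an adjusted p of 0.05, with 1045 of 17625 genes (5.93%) at an unadjusted p under 0.05, while 55.2% of genes were called in the response of *Ncoa6*-sufficient BMDMs for comparison. DESeq2 called 43 genes for the difference and limma-voom 0. The 2 responses use different libraries. Of the 4446 genes higher in *Ncoa6*-KO BMDMs, 87.7% were also called higher in *Ncoa6*-sufficient BMDMs, which is 89.4% of those called higher there, and of the 4913 lower genes 91.1% were also called lower, 83.2% of those there. Of 5339 genes called beyond 1 in *Ncoa6*-KO BMDMs, 5305 had a fold change of the same sign in *Ncoa6*-sufficient BMDMs. Across the 11215 genes averaging 50 normalized counts or more, the correlation of the log2 fold changes was 0.981, as a description over genes, which are not independent replicates.

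**Figure D4:**
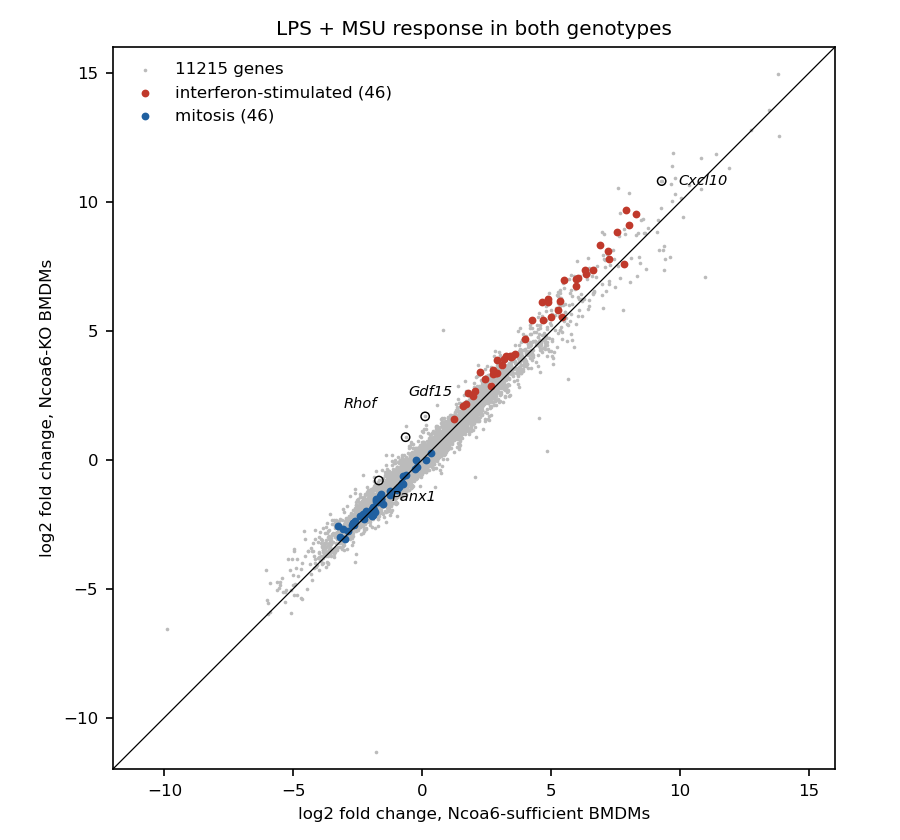
Log2 fold change (LPS + MSU minus medium) in *Ncoa6*-sufficient (horizontal) and *Ncoa6*-KO BMDMs (vertical) for 11215 genes averaging 50 normalized counts or more, with the 46 interferon-stimulated genes in red, the 46 mitosis genes in blue, the line of equal change and 4 genes ringed. Most points lie along the line, and 45 of the 46 interferon-stimulated genes lie above it, against 6947 of all 11215.

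The 5 genes with the smallest p for the difference were *Gdf15*, *Gemin4*, *Cxcl10*, *Rhof* and *Panx1*. *Gdf15*, a stress-induced cytokine of the TGF-β family, was at 1734 and 1437 normalized counts with medium and 4852 and 5293 with LPS + MSU in *Ncoa6*-KO BMDMs and at 1363 and 1255 with medium and 1199.8 and 1625 with LPS + MSU in *Ncoa6*-sufficient BMDMs, a log2 fold change of 1.68 against 0.11 (difference 1.57, 95% interval 1.12 to 2.01, unadjusted p = 9.22e-06, edgeR adjusted p = 0.163). The *Ncoa6*-KO libraries with LPS + MSU stood above all others. *Cxcl10* rose by 10.80 against 9.28 (difference 1.52, 95% interval 1.02 to 2.02, unadjusted p = 3.75e-05, edgeR adjusted p = 0.22). It was at 249.9 and 330.3 with medium and 191127 and 169104 with LPS + MSU in *Ncoa6*-sufficient BMDMs, so the genotypes were closer with LPS + MSU than with medium. *Rhof*, a small GTPase of filopodia, rose from 118 and 106 with medium to 206 and 204 with LPS + MSU in *Ncoa6*-KO BMDMs and was at 104 and 121 with medium and 72 and 71.6 with LPS + MSU in *Ncoa6*-sufficient BMDMs (difference 1.52, 95% interval 0.99 to 2.05, unadjusted p = 6.37e-05, edgeR adjusted p = 0.234). *Panx1*, the ATP release channel, fell in both, by 0.81 against 1.69 (difference 0.88, 95% interval 0.57 to 1.18, unadjusted p = 6.64e-05, edgeR adjusted p = 0.234). *Gemin4* was at 151 and 279 with medium and 54 and 70.2 with LPS + MSU in *Ncoa6*-sufficient BMDMs, and the absence of counts was seen in the *Ncoa6*-KO libraries with LPS + MSU. Each of the 5 passed an adjusted p of 0.05 with DESeq2 and with edgeR without the count filter, and none with edgeR as used here.

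The interferon-stimulated list stood at one side of the line. Its median response was 5.40 in *Ncoa6*-KO and 4.45 in *Ncoa6*-sufficient BMDMs, the median difference was 0.72 against 0.06 over all genes tested, and 33 of 46 genes (71.7%, against 5.93%) had an unadjusted p under 0.05. None passed an adjusted p of 0.05 with edgeR as used here, while 7 did with DESeq2, 29 with edgeR without the count filter and 10 without replicate 1 of *Ncoa6*-KO with medium. With medium, all 46 were lower in *Ncoa6*-KO than in *Ncoa6*-sufficient BMDMs, by a median of 0.95 on the log2 scale, and with LPS + MSU 44 of 46 were lower, by a median of 0.24; the levels with medium enter both the first comparison and the response, so these values are not independent. The median difference ran from 0.45 without replicate 2 of *Ncoa6*-KO with medium to 1.08 without replicate 1, the 2 libraries that differ in these genes. For *Isg15*, the levels in *Ncoa6*-sufficient BMDMs were 985 and 666 with medium and 26745 and 22156 with LPS + MSU, and for *Rsad2* they were 2847 and 2502 with medium and 470767 and 337422 with LPS + MSU. Of the other lists, the chemokines had a median difference of 0.52 (18 of 23 above 0), the MHC class I genes of 0.22 (18 of 20), the cytosolic ribosomal proteins of 0.11 (76 of 76, none with an unadjusted p under 0.05), the mitosis genes of 0.06 and the NF-κB genes of 0.03. With medium, 19 of 23 chemokine and 20 of 20 MHC class I genes were lower in *Ncoa6*-KO than in *Ncoa6*-sufficient BMDMs. With LPS + MSU, only 5 and 2 of them were higher in *Ncoa6*-KO BMDMs. Of all 17625 genes tested, 10321 had a difference above 0. With medium, 9694 of the 17625 were lower in *Ncoa6*-KO than in *Ncoa6*-sufficient BMDMs, and with LPS + MSU 8923 were higher. The MHC class I median ran from 0.03 without *Ncoa6*-KO LPS + MSU replicate 1 (10 of 20 above 0) to 0.37 without *Ncoa6*-KO medium replicate 1. With DESeq2 size factors in edgeR the ribosomal median was 0.06 (67 of 76 above 0) and the NF-κB median -0.02. *Nlrp3* responded by 4.48 against 4.09 in *Ncoa6*-sufficient BMDMs, *Il1b* by 11.70 against 10.80 and *Pycard* by -0.48 against 0.04, with unadjusted p of 0.0367, 0.03 and 0.0392 for the difference. In *Ncoa6*-sufficient BMDMs *Il1b* was at 18.8 and 15.5 with medium and 31995 and 29707 with LPS + MSU. In *Ncoa6*-KO BMDMs it was lower under both conditions, at 6.95 and 3.51 and at 18367 and 18637. Of the 24 inflammasome genes, none passed an adjusted p with edgeR as used here, 2 did with DESeq2 and 3 with edgeR without the count filter.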

How the data were processed

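Bulk RNA-seq (stranded poly(A) libraries, paired-end reads) was measured in 8 BMDM libraries, 2 per group, which were grouped by their GEO labels. The deposited table holds expected counts per gene, which the authors made with STAR 2.7.3a and RSEM 1.3.3 on GRCm38, without normalization or pooling. Expected counts are shared out by RSEM where reads match several genes, so near-identical copies are uncertain.

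The counts were rounded, and genes with a sum under 10 were left out. edgeR 4.0.16 (R 4.3.3) was used for TMM scaling, a 4-group quasi-likelihood fit and contrasts, with Benjamini-Hochberg adjustment over 17625 genes. The code was tested on simulated data. The labels do not say whether same-numbered replicates are paired, and no block was used in the reported fit. Alternatives were DESeq2 1.42.0, limma-voom (limma 3.58.1), other size factors and filters, a replicate block, the 4 *Ncoa6*-KO libraries alone, and leaving out each library.

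The members and the 30 gene lists were chosen with earlier results of these data known. Genes were named by rule: the 10 largest rises and 10 largest falls without overlap, preselected list members, the largest rise and fall of each list, the 5 smallest interaction p-values, the 10 most counted genes of each condition, and *Ncoa6* and *Lyz2*. Other genes, mostly list members, were named after their values were seen. Promoters are from RefSeq (GRCm38.p6); the same rule picks *Ccl5*. They matched 77.5% of the tested protein-coding genes, under 80%, so a motif share over called genes is void. Motif searches planned for NF-κB, ISRE, CRE and E2F sites are not reported here. Some list members are not reported here by name.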

Additional observations from a re-analysis of the deposited data

Results flagged for a closer look

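3 genes were called higher with LPS + MSU in *Ncoa6*-KO BMDMs and lower in *Ncoa6*-sufficient BMDMs. These calls were made separately in each genotype. *Rhof* had log2 fold changes of 0.87 and -0.65, a difference of 1.517 (unadjusted p = 6.37e-05, edgeR adjusted p = 0.234). *Srxn1* had 0.53 and -0.54, a difference of 1.068 (unadjusted p = 0.00142, edgeR adjusted p = 0.437). *Mgat4b*, an enzyme of N-glycan branching, had 0.67 and -0.43, a difference of 1.099 (unadjusted p = 0.000158, edgeR adjusted p = 0.272); it was named after its values were seen. In *Ncoa6*-KO BMDMs *Rhof* was at 206 and 204 normalized counts with LPS + MSU against 118 and 106 with medium. The rule that flagged these genes asked for opposite directions without overlap in each genotype, so the lack of overlap is no support. None of the 3 differences passed the adjusted threshold.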

How the results depend on the processing

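The counts of genes called higher and lower stayed within 1.5 times their values in *Ncoa6*-KO BMDMs under the 17 alternatives, from 7738 to 10359 called, and in *Ncoa6*-sufficient BMDMs under the 16 that include them, while the direction with more genes turned with DESeq2 (4298 higher, 3896 lower). The count for the difference between genotypes moved further: against 0, DESeq2 gave 43 genes, no filter 269, and leaving out 1 library 0 to 23 (1 without *Ncoa6*-sufficient LPS + MSU replicate 2, *Gdf15*, and 23 without *Ncoa6*-KO medium replicate 1, *Gdf15* and *Gemin4* among them). With the replicate number as a block this count was 86 across all libraries and 444 within each genotype, with 17 and 42 of the 46 interferon-stimulated genes, 3 and 5 of the 24 inflammasome genes and, under both, all 5 genes with the smallest p; the deviations of same-numbered libraries correlated at 0.153 in *Ncoa6*-KO and 0.123 in *Ncoa6*-sufficient BMDMs, and nothing in the labels says that a number marks a pairing. The cause was not tested. Of 176 called genes among 206 named, none changed sign and 19 lost the call under at least 1 alternative; leaving out 1 library ended it for *Ctss* (0.46), *Fth1* (0.46), *Arntl* (-0.59) and *Ccnd1* (-0.92) without LPS + MSU replicate 1, for *Sqle* (-0.28) without LPS + MSU replicate 2, for *Timp2* without any of 3 libraries (-0.55 to -0.34), and for *mt-Co1* without any of the 4 *Ncoa6*-KO libraries (0.56 to 0.73). 11 genes that were not called changed sign: *Sdhb* to -0.046 and *Itgam* to -0.025 with upper-quartile factors, *Ddit3* to 0.001 with both uses of DESeq2 size factors, and without 1 library *Apoe* (-0.047 to 0.628), *Nqo1* (-0.366 to 0.156), *Sdhb* (-0.025 to 0.081), *Abca1* (-0.618 to 0.665), *Abcg1* (-0.394 to 1.58), *Ddit3* (-0.167 to 0.043), *Alox5* (-1.344 to 0.425), *Ccr1* (-0.102 to 0.501), *Pcna* (-0.175 to 0.064), *Itgam* (-0.035 to 0.117) and *Lyz2* (-0.014 to 0.174). 23 of 30 list medians kept their sign under every alternative; those of the LXR, NCOA6, NRF2, TCA cycle, cholesterol, stress and prostaglandin lists changed it. The median of all genes was -0.07 with TMM, -0.02 with DESeq2 size factors and -0.15 with upper-quartile factors.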
